A study of Drosophila melanogaster with 2 samples.

Results

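Peaks of the zinc finger protein Tiptop (tio) that lie just upstream of a promoter were described, set apart from those between 2 divergent genes. A peak belonged to the class if its summit, the position of highest signal, had a protein-coding transcription start site (TSS) as its nearest start, at most 1 kb away, and lay upstream of that start. Summits between head-to-head protein-coding genes, whose 5′ ends face each other at most 1 kb apart, were left out. Of 3793 peaks that passed the authors' threshold of reproducibility between replicates, 1040 met the rule (27.4%, Wilson 95% interval 26.0 to 28.9, counting error only). Before pairs were left out, 1312 summits were upstream of their start, and 272 of these lay inside a pair.

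The data come from chromatin immunoprecipitation with sequencing (ChIP-seq) of whole Drosophila melanogaster embryos collected 4 to 24 h after egg laying, of mixed sex, from a transgenic line that expresses Tiptop with green fluorescent protein (eGFP) at its C terminus. The fusion protein was pulled down with an antibody against GFP from chromatin sonicated to between 200 and 800 bp. There was 1 group with 2 biological replicates and no second condition, so no test between groups was possible and every value below is a description. DNA of all tissues and stages of the collection was mixed, so cells or times that carry a peak cannot be told apart, and the sources do not say at what level the transgene is expressed. The files give peak signals and not reads, so the depth of each library is unknown. Signal is given in the authors' own unit, whose scaling is not stated.

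Tiptop is a paralogue of Teashirt, a zinc finger repressor that patterns the embryonic trunk, and both are known from the Malpighian tubule, the insect kidney. Sequence just upstream of a start carries promoter-proximal elements at which transcription factors, insulator proteins and remodellers meet, and it is often short of nucleosomes. Many fly genes have alternative starts, so that such sequence also lies within introns of the gene itself.

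The 5 strongest peaks of the class outside the right arm of chromosome 2 are shown with 60 bp on either side of the summit, read 5′ to 3′ on the strand of the gene they precede, because these letters are what the shares of bases and motifs below are counted in. Capitals mark unbroken stretches of at least 8 A or T. The window at CG14100 lies at chr3L:19590581-19590701, minus strand, 117 bp upstream of the start and outside genes. That at CG31145 lies at chr3R:23669793-23669913, minus strand, 194 bp upstream and outside genes. The windows at Lk6, which encodes a kinase that acts on the translation machinery (chr3R:11760988-11761108, minus strand), larp, which encodes an RNA-binding protein of translational control (chr3R:28326556-28326676, minus strand), and Hrd3, which encodes a part of the degradation machinery of the endoplasmic reticulum (chr3R:23758118-23758238, minus strand), lie in introns of those genes, before an inner start. Their summits were 969, 352 and 161 bp upstream. Coordinates are of dm6, and the letters are from the Release 6 reference sequence.
CG14100: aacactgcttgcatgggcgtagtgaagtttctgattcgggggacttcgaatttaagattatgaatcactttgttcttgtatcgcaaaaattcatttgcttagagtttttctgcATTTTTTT
CG31145: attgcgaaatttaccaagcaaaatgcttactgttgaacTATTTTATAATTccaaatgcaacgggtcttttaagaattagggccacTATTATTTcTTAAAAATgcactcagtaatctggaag
Lk6: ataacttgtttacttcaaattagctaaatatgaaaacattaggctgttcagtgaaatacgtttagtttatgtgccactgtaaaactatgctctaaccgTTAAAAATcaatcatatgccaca
larp: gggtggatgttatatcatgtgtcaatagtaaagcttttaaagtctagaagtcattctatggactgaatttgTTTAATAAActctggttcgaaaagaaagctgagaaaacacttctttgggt
Hrd3: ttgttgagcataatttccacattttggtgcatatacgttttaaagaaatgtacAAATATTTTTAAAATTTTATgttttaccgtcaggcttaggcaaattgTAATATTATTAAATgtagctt

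Each of these windows held at least 1 such stretch, of 20 bp at Hrd3, 12 bp at CG31145, 9 bp at larp and 8 bp at CG14100 and Lk6. G+C in these letters ran from 25.6% at Hrd3 to 35.5% at CG14100. The window at CG14100, the strongest peak of the whole list, was thus the least A+T-rich of these.

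The summits clustered at a short distance from the start. The rule admits only summits upstream of it, though the peak around a summit can reach over the start, as at CG14100. The median summit lay 291 bp upstream, with quartiles of 176 and 466 bp, and the nearest 6 bp. Between 100 and 350 bp upstream lay 548 of the 1040 summits (52.7%), while 84 (8.08%) lay within 100 bp and 227 (21.8%) beyond 500 bp. Stronger peaks lay nearer: the median distance was -343 bp in the lowest quartile of the thresholded list by signal, -327.5 and -291 bp in the next ones, and -248.5 bp in the highest. The share within 250 bp was 33.3% in the lowest quartile and 50.8% in the highest. In the 3793 regions with the lowest signal of the pooled list, 333 met the same rule (8.78%), with a median of -420 bp and 30.0% within 250 bp.

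**Figure D1:**
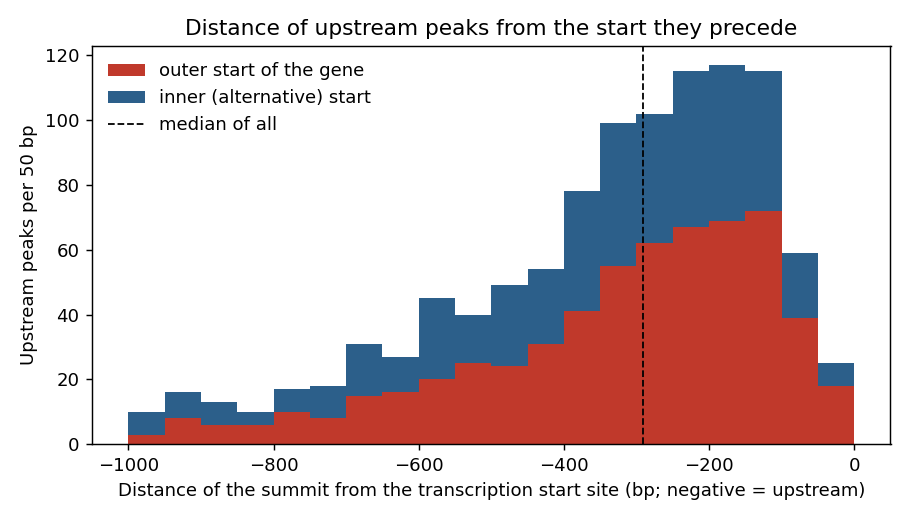
Number of upstream peaks per 50 bp (y axis) by the distance of the summit from the start in bp (x axis), stacked for 595 peaks at the outer start of a gene and 445 at an inner start. Counts are highest between 100 and 350 bp upstream, and the dashed line marks the median of 291 bp.

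The class was drawn from both kinds of start. The outermost start of a gene was preceded by 595 summits (57.2%, median 277 bp upstream), and an inner, alternative start by 445 (42.8%, median 316 bp). Of the 1040 summits, 500 were intergenic (48.1%) and 490 intronic (47.1%), against 32.8% intergenic and 65.6% intronic of the 2132 peaks over 1 kb from any start. A further 33 lay in 5′ UTRs, 16 in 3′ UTRs and 1 in a coding exon, and 141 lay inside a gene other than the one they preceded. Signal had a median of 164 at outer and 179 at inner starts. In replicate 1 these medians were 90.7 at outer and 96.9 at inner starts, and in replicate 2 they were 79.5 and 88.6.

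The name of the class as single promoters was not exact for all of its peaks. At 111 genes that have a head-to-head partner at their 5′ end, 131 peaks lay outside the gap between the partners. Another 50 lay between genes from 1 to 2 kb apart, and 27 were equally near to starts of more than 1 gene. Just inside the limit of distance were the peaks at ex, 986 bp upstream (signal 96.5, with 48.9 in replicate 1 and 45.8 in replicate 2), and at ph-d, 985 bp upstream (202, with 149 and 61.5). Just outside lay peaks 1008 bp upstream of magu (168, with 85.8 and 76.6) and 1010 bp upstream of CG33080 (112, with 42.3 and 70.3). By the gap between divergent genes, the peaks between Rpn11 and qtc (1025 bp apart, signal 136) and between SLC5A11 and CG8419 (1039 bp apart, signal 356) were kept. Those between Dmtn and gpp (960 bp apart, signal 118) and between Ank2 and Mcad (955 bp apart, signal 112) were left out.

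Upstream peaks were stronger than the rest of the list. Their median signal was 171 (quartiles 118 and 293, range 87.7 to 2078), against 138 for the 2753 other peaks, a ratio of 1.24. The ratio was 1.25 in replicate 1, with medians of 92.9 and 74.5, and 1.23 in replicate 2, with medians of 83.5 and 67.7. By class, the median was 171 for upstream peaks, 197 between head-to-head genes, 154 for the 347 peaks up to 1 kb downstream of a start, and 132 for those over 1 kb away. The class made up 19.9% of the lowest quartile of the list by signal, 23.8% and 27.5% of the next ones, and 38.4% of the highest.

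The same order held over the longer pooled list, which also contains regions that failed the authors' threshold. Of its first 3000 regions by signal, 29.2% met the upstream rule. The share was 17.1% in the next 3000, 12.8% in those after them, and from 7.43% to 10.3% in each later group. The share up to 1 kb downstream of a start changed much less, from 9.50% in the first group to between 6.90% and 7.90% in the others. Between head-to-head genes the share was 8.07% in the first 3000 and 0.267% in the last group.

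**Figure D2:**
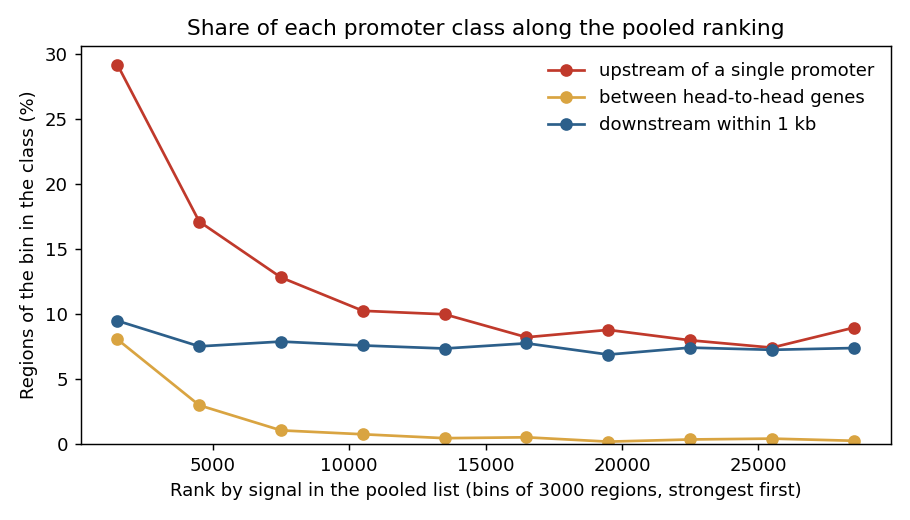
Share of regions in each promoter class (y axis, %) along the pooled list in groups of 3000 ranked by signal (x axis, strongest first). Upstream peaks are 29.2% of the first group and 8.97% of the last, while the downstream class stays between 6.90% and 9.50%.

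Both replicate lists held most of the class. The peaks had been thresholded on reproducibility between these same replicates, so a high share found in both was largely built in. A summit within 100 bp was found in both replicate lists for 958 upstream peaks (92.1%), against 92.5% of the other peaks, and for the rest 43 were missing in replicate 1 and 41 in replicate 2, with 2 missing in both. Among the first 3793 regions of each replicate list were 74.7% of the upstream peaks and 65.6% of the others. Rank correlation of the 2 replicates over peaks was 0.865 for upstream peaks and 0.752 for the others. This is a description across peaks that share 2 libraries, and the upstream peaks span a wider range of signal. Replicate 1 gave the higher signal, with a median log2 ratio of replicate 1 over replicate 2 of 0.18 for upstream peaks and 0.15 for the others. A difference of over 2-fold between replicates was seen for 39 matched upstream peaks (4.07%), against 5.26% of the other peaks.

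The widest gaps show where single values are least certain. At CG2246, 422 bp upstream, the signal was 24.3 in replicate 1 and 149 in replicate 2. The reverse was seen at papi, a gene of the piRNA pathway, with 107 in replicate 1 and 27.7 in replicate 2, and at Tlk, which encodes Tousled-like kinase, with 118 and 24.3. The lower value of papi ranked 9259 in its own list and that of CG2246 15689, whereas the other replicate placed these peaks at rank 1200 and 562. The pooled signal was 287 at CG2246, 170 at this papi peak and 185 at Tlk. Before the same start, papi had a stronger upstream peak with a pooled signal of 571. Its summit was at 2221793 on 2L, against 2221998 for the weaker peak. The stronger papi peak was matched only in replicate 2, with 264. Each replicate value is that of the nearest summit within 100 bp. Whether a low value belongs to a weaker neighbouring summit was not tested, so these gaps may not be differences at the same summit.

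**Figure D3:**
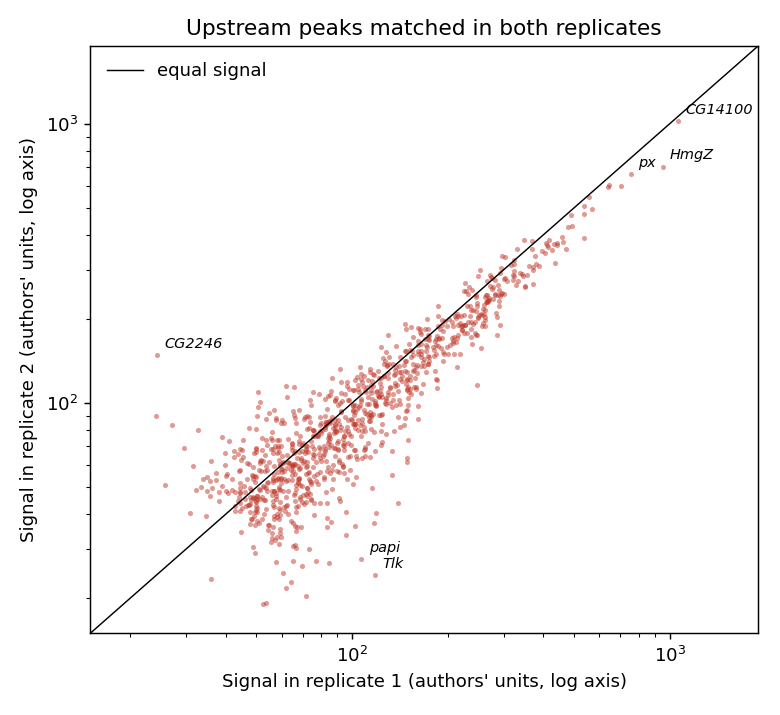
Signal in replicate 2 (y axis) against replicate 1 (x axis), both in the authors' units on log axes, for the 958 upstream peaks matched in both lists. Points follow the line of equal signal, slightly below it, with CG2246 far above and papi and Tlk far below.

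The 10 strongest upstream peaks ranked among the first 27 of all peaks. CG14100 had a signal of 2078 (1063 in replicate 1 and 1021 in replicate 2) and ranked first in the pooled and in both replicate lists. HmgZ, which encodes an HMG-box chromatin protein, followed with 1641 (951 and 703), at a summit 621 bp before an inner start and also inside the neighbouring HmgD. The peak at px, a gene of wing vein patterning, had 1412 (754 and 661) and lay before an inner start. CG31145 had 1300 (705 and 599), Lk6 1243 (643 and 604) and Tina-1 1229 (638 and 596). The last was 173 bp upstream of an outer start.

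The next of these 10 were at larp with 1108 (559 in replicate 1 and 547 in replicate 2), Hrd3 with 1062 (571 and 494), and Pal1, which encodes an enzyme of peptide amidation, with 1022 (539 and 477). The last was at ph-p, a Polycomb group gene, with 1002 (536 and 507). Of the 10, 7 preceded an inner start in an intron, and CG14100, CG31145 and Tina-1 had peaks at an outer start. The replicates differed least at larp (log2 ratio 0.03) and most at HmgZ (0.44).

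The peaks preceded 933 starts of 857 genes, of which 705 genes had 1 peak, 129 had 2 and 23 had 3 or more. Genes with an upstream peak were long and had many starts. Their median span was 8257 bp against 2166 bp for all 13945 protein-coding genes. They had 2.36 starts per gene against 1.41, and 62.3% had more than 1 start against 26.5%. Among genes without a head-to-head partner, the median span was 7734 bp with an upstream peak and 1991 bp without one. A further peak of another class lay in the span of 275 genes with an upstream peak (32.1%), against 7.48% of all protein-coding genes. These sets differ in median span, as given above, and no set of genes of like length was compared. A gene with more starts has more sequence in which a summit can meet the rule. Peaks of 1 gene can also adjoin, and 98 summits lay within 436 bp of the next upstream summit, a distance equal to the commonest peak width. Each summit was counted as a peak, and 6 shared their deposited interval with another upstream summit. Genes still named only by a CG number made up 29.5% of the genes with an upstream peak, against 43.7% of all.

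The most upstream peaks were at dnc and Ptpmeg2, with 5 each. The gene dnc, which encodes a cAMP phosphodiesterase needed for learning, spans 167328 bp with 9 starts, and 4 of these had upstream peaks. Their signals were 551 (253 in replicate 1 and 298 in replicate 2) and 220 (117 and 79.1) before 1 start, and 93.0, 538 and 101 before the other starts. The summits with 551 and 220 share the same deposited interval. Ptpmeg2, which encodes a protein tyrosine phosphatase, had peaks before 4 of its 6 starts, with signals from 133 to 495.

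Another 4 genes had 4 upstream peaks each. They were capu, which encodes a formin that nucleates actin, Moe, which encodes the membrane linker Moesin, Rtnl1, which encodes a reticulon of the endoplasmic reticulum, and larp. Signals within 1 gene were uneven. The strongest at Rtnl1 was 779 (414 in replicate 1 and 361 in replicate 2) and the weakest 148 (74.6 and 70.0), while larp had 1108 before 1 start and from 142 to 157 before its other starts. The signals ran from 93.2 to 213 at capu and from 88.2 to 189 at Moe.

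Counts over gene lists were read against the share of all genes. An upstream peak was found at 6.15% of protein-coding genes and at 8.02% of the 9297 genes without a head-to-head partner, which are the genes at which the rule can act freely. The counts below are over list genes without a partner, and where a gene had several upstream peaks the strongest is given. The lists were chosen with results of these data known, they are short, and no list was tested. Several hold long genes, against a median span of 2166 bp for all protein-coding genes. Their median span was 22386 bp for nuclear receptors, 19431.5 bp for Wnt, 17475 bp for Hippo, 16402 bp for BMP, 11535 bp for Hedgehog and 10279 bp for EGFR. The share of 8.02% is not a background of like length for them.

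Of signalling lists, Notch stood highest in number. An upstream peak was found at 7 of 13 Notch pathway genes (53.8%), whose median span of 6978 bp is near that of genes with an upstream peak. They included the bHLH repressor gene E(spl)m3-HLH, 467 bp upstream with a signal of 684 (372 in replicate 1 and 308 in replicate 2). At gro, which encodes the corepressor Groucho, the peak lay 131 bp upstream with 588 (293 and 292). At numb, which encodes an inhibitor of Notch, it lay 149 bp upstream with 444 (249 and 203). The others were E(spl)m7-HLH (267), the ubiquitin ligase gene neur (171), the glycosyltransferase gene fng (128) and the receptor gene N (92.7, with 36.3 and 49.8), so that the receptor itself had the weakest peak. The peaks of E(spl)m3-HLH, E(spl)m7-HLH and gro lie close together on 3R, with summits at 26021356, 26036636 and 26042510. A large part of the count thus comes from a single locus.

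In the EGFR pathway, 4 of 10 genes had an upstream peak, and all of these encode nuclear effectors or inhibitors. At aos, which encodes a secreted inhibitor of the receptor, the signal was 426 (214 in replicate 1 and 208 in replicate 2), 248 bp upstream. At edl, which encodes a regulator of ETS factors, it was 255 (139 and 111). The ETS factor genes aop and pnt had 166 and 102. The ligand gene spi, which has a head-to-head partner, had the strongest upstream peak of the list, with 617 (350 and 263), before an inner start.

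Among BMP genes 2 of 13 had an upstream peak. At brk, the repressor gene of the pathway, the signal was 446 (244 in replicate 1 and 196 in replicate 2) and the summit lay 774 bp upstream, in an intron of CG1677. At shn, which encodes a zinc finger partner of Mad, it was 133 (67.6 and 42.7). Mad itself, which has a partner, had 348 (161 and 186) before an inner start. Among Wnt genes 2 of 10 had one, the kinase gene sgg with 462 (263 and 203) and the feedback inhibitor gene nkd with 265 (129 and 136). Hippo genes had upstream peaks at 4 of 7, and only ds had a signal above the median of the class. The count was 2 without replicate 1, 2 without replicate 2 and 1 with the window of 500 bp. The atypical cadherin gene ds had 202 (102 and 98.4), its partner ft 120 (67.6 and 52.4), and ex and kibra 96.5 and 92.9. No upstream peak was found at the 6 Hedgehog or the 6 JAK-STAT genes without a partner. In the Hedgehog list, rdx, which has one, carried a signal of 420 (227 and 190).

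Of the nuclear receptor genes, 6 of 17 had an upstream peak, and only Hnf4 had a signal above the median of the class, with 358 (169 in replicate 1 and 184 in replicate 2), 347 bp upstream. The ecdysone receptor gene EcR had 135 (72.3 and 61.7) and Eip75B 122 (66.4 and 51.0). Weaker ones were at usp (109), eg (108) and ftz-f1 (99.3). Of cell cycle genes 4 of 13 had one. CycE, the cyclin gene of S phase entry, had 344 (164 and 184), fzr, which encodes an activator of the anaphase-promoting complex, had 189 (99.8 and 86.7), Cdk4 had 173 (91.4 and 80.1), and E2f1 had 110 (41.0 and 73.3).

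Of the lists of genes that every cell uses, the cytosolic ribosomal proteins had the highest count. Of 38 cytosolic ribosomal protein genes, whose median span is 1404.5 bp, 8 had an upstream peak (21.1%), a count of 6 without replicate 2, 13 without replicate 1 and 4 in the stronger 0.5 of the list, and the strongest peak of each lay very near the start, from 6 to 87 bp upstream. RpS3A had a second peak, 302 bp upstream with a signal of 105. The strongest was at RpL41, 87 bp upstream, with 288 (153 in replicate 1 and 125 in replicate 2). RpLP0, which has a partner, had 270 (143 and 125) at 18 bp, and RpS10b 174 (102 and 68.1) at 20 bp. The peak of RpS27A, with a signal of 205, was matched only in replicate 2 (50.9) and the nearer peak of RpS3A, with 129, only in replicate 1 (73.1). In the other lists of this kind, 1 of 26 proteasome genes had one, Rpn11, which encodes a deubiquitinase of the lid, with 136 (81.6 and 53.5). None was found at 17 mitochondrial ribosomal protein genes, 11 aminoacyl tRNA synthetase genes, 12 TFIID and Mediator genes or 4 genes of minichromosome maintenance and origin recognition. Lists this short would hold few upstream peaks at the share of 8.02% too, so these low counts do not set them apart. In the 4 lists with none, most genes have a head-to-head partner, 56 of 73 in the mitochondrial ribosomal list, and the rule leaves out the gap between them.

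Of other lists, insulator and promoter factors had 2 of 8, row with 341 (179 in replicate 1 and 159 in replicate 2) and BEAF-32 with 173 (103 and 64.5) only 34 bp upstream. Heat shock protein genes had 2 of 17, both small heat shock genes on 3L: Hsp27 had 607 (324 and 286), 137 bp upstream, and Hsp26 had 209 (105 and 110), 140 bp upstream. Among 4 genes of histone variants and HMG proteins, HmgZ and HmgD had one, the second with 113 (68.4 and 50.8). Dsp1, which has a partner, had 231 (132 and 99.8). Of neural genes 2 of 12 had one, the RNA-binding protein gene elav with 560 (274 and 282) and brat, which limits neuroblast growth, with 451 (263 and 190). Of regulators of the Malpighian tubule and hindgut 3 of 14 had one, the zinc finger gene bowl with 538 (266 and 274), CycE, which is in both lists, and the forkhead gene fkh with 230 (128 and 98.9). Of 198 genes of chemosensory receptors and odorant-binding proteins only Obp99b, which encodes an odorant-binding protein, had one, with 119 (75.8 and 54.8). This is 0.505%, against 8.02% of all genes without a head-to-head partner. The median span of this list is 1491 bp, against 2166 bp for all protein-coding genes. The share of 8.02% is thus not a background of like length for it either.

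Base composition had a minimum at the summit. Within 100 bp of it, G+C averaged 33.6% ± 6.37 (SD over 1040 peaks), against 43.1% in windows of the same length 500 bp to either side, and it was lower than there at 893 peaks (85.9%). These windows averaged 41.0% away from the start and 45.2% towards it. Here and below, windows 500 bp towards the start are centred past it for most peaks. Promoters without any thresholded peak, read in 10792 windows of the same length 291 bp upstream of their starts, averaged 38.5%. Stretches of at least 8 A or T were found in 85.1% of the peak windows and 66.8% of these promoters. The minimum was lopsided along the gene: at the summit G+C stood at 31.2%, against 39.1% at 100 bp towards the start and 35.0% at 100 bp away from it. A also exceeded T by 2.0 percentage points at 75 bp away from the start, while T exceeded A there on the other side, with A minus T of -3.44 points at 75 bp towards it. Among promoters without a peak A minus T was 0.84 and 0.80 points at the same places. Peaks over 1 kb from a start had 34.1% G+C, so that the low value was not particular to the class.

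The motifs below were searched on both strands within 100 bp of each summit, and a match describes letters, not binding. The site of the GAGA factor (Trl), GAGAGAG, was in 5.67% of upstream peaks, against 1.46% between head-to-head genes, 2.20% over 1 kb away and 3.37% of promoters without a peak. In windows 500 bp from the same summits it was in 6.15% away from the start and 9.13% towards it, so that its share at the summit was lower than in either of these. The site of DREF and BEAF-32, TATCGATA, was in 1.73% of upstream peaks, against 7.30% between head-to-head genes, 0.563% over 1 kb away and 1.42% of promoters without a peak. Other promoter elements had the same order. Ohler motif 7, CATCNCTA, was in 2.79% of upstream peaks and 7.30% between pairs, and the M1BP site GGTCACAC was in 1.15% and 2.55%.

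The E-box CATATG was in 9.62% of upstream peaks, against 9.19% of peaks over 1 kb away, 6.12% of promoters without a peak, and 6.63% and 5.58% of the windows 500 bp away from and towards the start. The E-box CAGCTG was in 7.21%, against 7.28% of promoters without a peak. The 6-mer CAGTGC, seen in an earlier analysis of these data, was in 12.1% of upstream peaks, 19.5% of peaks over 1 kb away and 8.17% of promoters without a peak. Motifs made of A and T were also more frequent in these A+T-rich windows, the TATA box TATAAA with 39.5% against 30.2% of promoters without a peak the homeodomain core TAATTA with 19.1% against 16.8%, the 6-mer TTAAAA with 56.9% against 39.4%, and AAAAAA with 47.6% against 37.3%. The forkhead site TAAACA was in 27.3% against 22.5%, and the GATA site AGATAAG in 3.94% against 2.98%, with 4.61% in peaks downstream of a start and 5.71% in the lowest-ranked regions that met the rule. The initiator TCAGTT was in 12.5% against 12.9%, and the CA repeat CACACACA in 2.50% against 3.55%. The Zelda site CAGGTAG, with 6 upstream peaks, and the CREB site TGACGTCA, with 2, were rare, in 0.577% and 0.192% against 1.19% and 0.371%.

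For 5 of these motifs, the strongest upstream peak that holds one within 50 bp of its summit, outside the right arm of chromosome 2, is shown with 50 bp on either side of the summit on the strand of the gene, with the motif in capitals, so that its place in the A+T-rich surroundings can be seen. The GAGA site is at CG1907 (chr3R:29618863-29618963, plus strand; signal 470), the DREF and BEAF-32 site at CG11263 (chr3L:13006481-13006581, plus strand; signal 104), and Ohler motif 7 at jigr1 (chr3R:25646959-25647059, plus strand; signal 308). CATATG is at Rtnl1 (chr2L:4997603-4997703, minus strand; signal 779) and CAGTGC at bbx (chrX:21367808-21367908, plus strand; signal 645). The strongest with an M1BP site was at RpLP0.
CG1907: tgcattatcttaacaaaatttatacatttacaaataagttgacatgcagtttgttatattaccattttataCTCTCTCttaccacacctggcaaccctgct
CG11263: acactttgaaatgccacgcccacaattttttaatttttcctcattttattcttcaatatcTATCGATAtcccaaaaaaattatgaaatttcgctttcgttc
jigr1: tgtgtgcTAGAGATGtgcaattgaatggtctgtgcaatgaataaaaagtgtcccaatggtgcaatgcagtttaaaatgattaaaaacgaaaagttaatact
Rtnl1: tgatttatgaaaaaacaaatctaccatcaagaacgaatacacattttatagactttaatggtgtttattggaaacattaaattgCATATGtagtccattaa
bbx: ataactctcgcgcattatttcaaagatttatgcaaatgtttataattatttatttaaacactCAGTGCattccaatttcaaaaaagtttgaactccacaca

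In each of these windows the motif lies within 40 bp of the summit. The weakest of these peaks, at CG11263, was matched only in replicate 2, with a signal of 37.0 there.

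**Figure D4:**
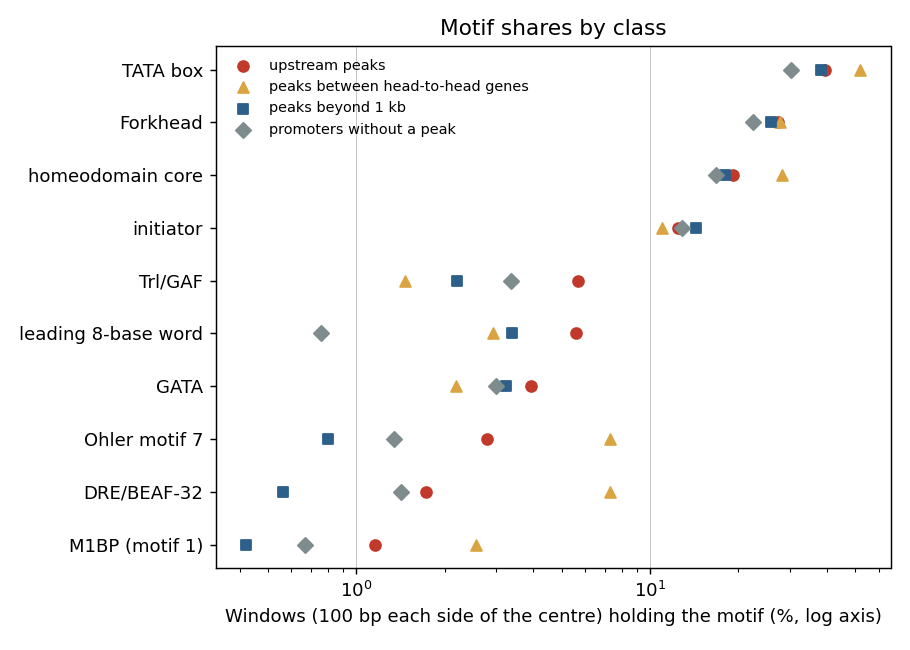
Share of windows, 100 bp on either side of their centre, that hold each motif (x axis, %, log axis) in upstream peaks, peaks between head-to-head genes, peaks over 1 kb from a start and promoters without a peak. Of these 4 sets, upstream peaks stand highest for the GAGA and GATA sites and for the leading 8-base word, described further on. The word was chosen on these same upstream peaks, so its place is built in. The DREF and BEAF-32 site and Ohler motif 7 stand highest between head-to-head genes.

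A search over all words of 8 bases, made after the values had been seen, gave a word that the motif list did not hold. Words were ranked in the 520 upstream peaks of even rank by their share over that in promoters without a peak plus 0.3 percentage points, among words in at least 10 of them, and their shares in the 520 of odd rank are given, though a search over all of them had come first and neither set is independent of it. The leading word was CCACTGTG, or CACAGTGG on the other strand. It was in 5.77% of the upstream peaks of odd rank, against 0.760% of promoters without a peak, a ratio of 7.59. The next, CACTGTGC, overlaps it by 7 bases and was in 6.73% against 0.797%. Over all upstream peaks the leading word was in 5.58%, against 2.92% between head-to-head genes, 3.17% downstream, 3.38% over 1 kb away and 0.300% of the lowest-ranked regions that met the rule. Outer and inner starts had like shares, 5.55% and 5.62%. The union CCACTGTGC was in 42 upstream peaks (4.04%), against 0.463% of promoters without a peak. Of the other words among the first 5, TACACTGA and ACTGAGAA were instead less frequent in upstream peaks, with 2.69% and 2.31%, than over 1 kb away, with 5.30% and 4.17%.

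The 6 strongest upstream peaks with the leading word outside the right arm of chromosome 2 show it in 40 bp on the strand of the word, with the word in capitals, so that the bases beside it can be compared. They are at larp (chr3R:28326670-28326709, plus strand), Rtnl1 (chr2L:4997558-4997597, minus strand), PAN3 (chr3L:3081496-3081535, plus strand), RapGAP1 (chr2L:7530621-7530660, minus strand), CG31808 (chr2L:16716369-16716408, plus strand) and Glyp (chr2L:2130703-2130742, plus strand).
larp: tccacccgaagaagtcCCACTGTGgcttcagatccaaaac
Rtnl1: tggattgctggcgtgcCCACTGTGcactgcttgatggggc
PAN3: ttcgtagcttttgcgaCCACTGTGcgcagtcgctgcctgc
RapGAP1: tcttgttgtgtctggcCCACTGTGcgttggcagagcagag
CG31808: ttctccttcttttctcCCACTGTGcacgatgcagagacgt
Glyp: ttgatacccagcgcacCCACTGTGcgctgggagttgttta

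In 5 of the 6 the base after the word is C, and in 5 of the 6 the base before it is C. Over 60 sites in upstream peaks the base after the word was C at 71.7% and the base before it C at 56.7%, while the second base before it was spread over all bases. Of 10792 promoters without a peak, 82 held the word and 50 held CCACTGTGC. In upstream peaks these counts were 58 and 42, so a C after the word was common in both sets. No such value is given for the base before it. The signals of these peaks were 1108 at larp (559 in replicate 1 and 547 in replicate 2), 779 at Rtnl1 (414 and 361), 630 at PAN3 (347 and 285), 611 at RapGAP1 (322 and 288), 552 at CG31808 (289 and 264) and 526 at Glyp (282 and 244). The median signal was 186 with the word and 170 without it.

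Sites of the word lay on both sides of the summit. Of 61 sites within 100 bp of a summit, 5 had their centre within 20 bp of the summit and 45 at least 40 bp from it, with a median of 59.5 bp. The sites were on the strand of the gene at 29 and on the other strand at 32. Counted in steps of 50 bp, there were 24.0 and 27.9 sites per 1000 peaks from 50 to 150 bp towards the start, and 6.73 in the 50 bp next to the summit on that side. On the side away from the start there were 14.4 in the 50 bp next to the summit and from 16.3 to 17.3 in each step from 50 to 200 bp. The mean over promoters without a peak was 2.03 per 50 bp. Seen from the starts of genes without a head-to-head partner, 337 had the word in the 500 bp upstream, and 108 of these had an upstream peak (32.0%), against 709 of 12496 without the word (5.67%). The word was chosen on these same peaks, so this share is no independent support. Most upstream peaks, 982 of 1040, did not hold the word.

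**Figure D5:**
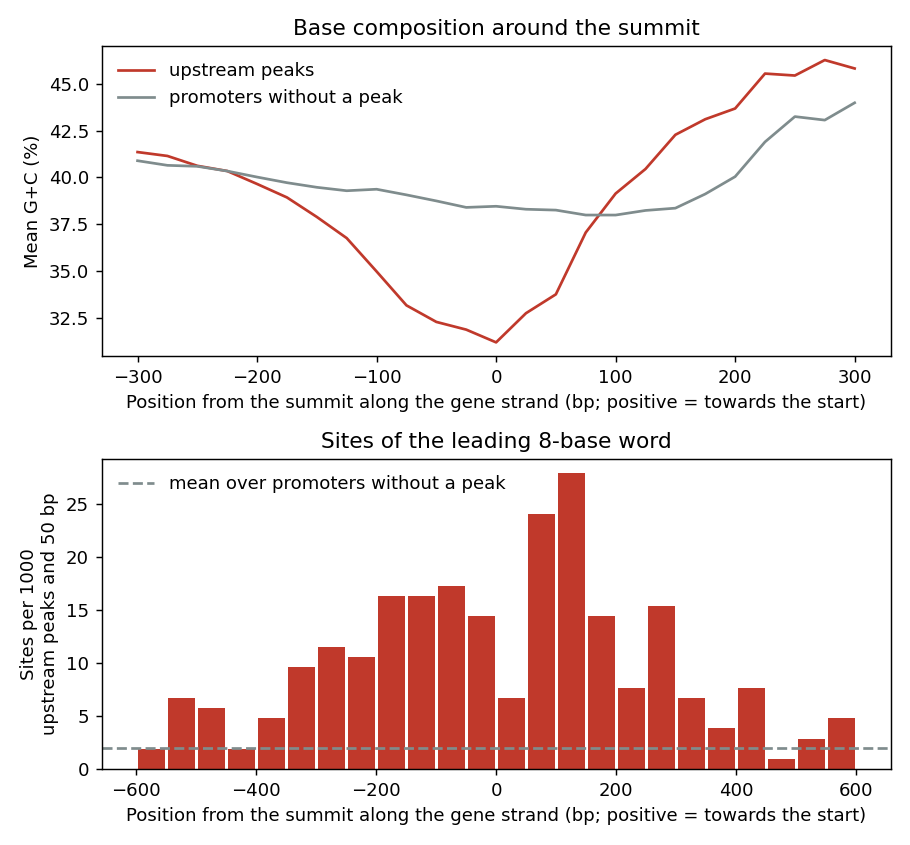
Mean G+C (upper panel, %) in 25 bp bins and sites of the leading 8-base word (lower panel, per 1000 upstream peaks and 50 bp, with the mean over promoters without a peak as a dashed line) by position from the summit along the gene strand in bp. G+C of upstream peaks falls to 31.2% at the summit, where promoters without a peak have 38.5%, and sites of the word are highest between 50 and 150 bp towards the start.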

How the data were processed

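Peak lists of 2 biological replicates in 1 group were used. Per the notes deposited with the samples, the authors derived each replicate's list from that replicate's alignments and a control, the pooled list from both replicates and the control, and the thresholded list from the irreproducible discovery rate over these lists, all on dm6. Which aligner, peak caller and threshold were used is not given in the sources used here. Values of the control were not analysed here. The signal of each region (column 7) is as the authors deposited it, with unstated scaling. The deposited −log10 q-value was read and supports no result. The lists on dm3 were not used. Each deposited replicate list and the pooled list held 30000 regions, of which 1 in the pooled list lay off the 6 main arms (2L, 2R, 3L, 3R, 4 and X) and was left out.

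Summits were assigned to starts of protein-coding transcripts of the Ensembl annotation BDGP6.54, release 115, with transposable elements left out. Of 13944 genes in both this annotation and RefSeq's Release 6 annotation, 13943 had the same start and end. Replicate signals are those of the nearest replicate summit within 100 bp, and 0 columns were left unmapped. Python 3.11.15 with numpy 2.4.6, pandas 2.3.3, scipy 1.17.1 and matplotlib 3.10.9 were used, and the assignment and motif search were tested on simulated data. Peaks are not replicates and there was 1 group, so no test was run. Wilson intervals cover counting error only. Nothing beyond the replicate numbers says how the 2 collections of embryos were made.

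The class, the 21 gene lists, the 17 motifs and the rule for named genes were chosen with earlier results of these data known. The rule named the 10 strongest upstream peaks, the genes with the most of them, up to 3 genes of each list, the peaks on either side of each limit, the widest gaps between replicates (1 of which is not reported here) and the strongest holder of each motif described. Further list genes, the other words and their examples were named after their values were seen. Among list genes, 5 older symbols were brought up to date and 3 had no match. The alternatives changed the peak threshold, the replicates used, the window, the pair distance, the set of starts, the matching distance and the motif window.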

Additional observations from a re-analysis of the deposited data

How the results depend on the processing

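No paired analysis was possible because there was 1 group and no contrast between groups. Of 192 values recomputed under 8 settings for 32 results, 147 stayed within their limits (1.5 times for a count, the 95% interval for a share, the SD of the values from each replicate alone for others) and 45 moved. A turn to the other side was defined only for the signal ratio, which stayed above 1 in every setting it was recomputed under. In the stronger 0.5 of the list by signal there were 625 upstream peaks at 549 genes, at a median of 265 bp, with a signal ratio of 1.17 to other peaks and 33.3% G+C. There the lists fell to 4 cytosolic ribosomal protein, 1 Hippo and 1 nuclear receptor gene, with fewer peaks to draw on. With 5′ ends of genes in place of all starts there were 631 peaks at 564 genes, at 280 bp, with a ratio of 1.16, 2 nuclear receptor and 2 cell cycle genes, since inner starts then drop out. With a window of 500 bp the median was 241 bp, the ratio 1.32 and the Hippo count 1. With 1 replicate alone the median ran from 272.5 to 288 bp, the ratio from 1.19 to 1.23 and G+C from 33.7% to 34.0%. The ribosomal count then ran from 6 without replicate 2 to 13 without replicate 1, and the Hippo count was 2 without either. Matching within 50 bp left 72.0% of upstream peaks in both replicates. Within 50 bp of the summit the shares were 1.83% for the GAGA site, 0.577% for the DREF and BEAF-32 site, 5.19% for CATATG, 4.42% for CAGTGC and 2.02% for the leading word, in windows with fewer bases. The word search and its settings were chosen after seeing the data. For moves not traced to fewer peaks, starts or bases the cause was not tested. Depth is unknown, so what it limits cannot be stated.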
